A study of Arabidopsis thaliana with 21 samples.

Results

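Plants of Arabidopsis thaliana labelled gcn5-/- were compared with plants of the wild-type accession Col-0 in 3 libraries each. These are 6 of the 21 RNA-seq libraries of a study that holds 3 libraries for each of 6 mutants and the wild type. The other mutants are named ada2b-c, ada2a, spc, ada2b-cada2a and ada2b-cspc, and of these only ada2b-c is set beside gcn5 here. The comparison covers every gene whose deposited value averaged at least 1 over the 21 libraries, which is 23290 of the 32548 genes listed. Plants of all genotypes were 30 days old and were raised alike, for 12 days on plates of MS medium and afterwards in soil, at 22 °C and under days of 16 h light and 8 h dark. The tissue is labelled seedlings, while the RNA is described as coming from plants in soil. The labels do not give the organs taken, the hour of collection, the kind of gcn5 mutation or the number of plants in a library. No label calls the 3 libraries of a genotype separate plants or cultures. Each p-value below therefore reflects the spread between libraries of a genotype alone, which may be technical. In the main fit this spread was pooled over all 21 libraries, not taken from gcn5 and Col-0 only.

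GCN5 is a histone acetyltransferase that adds acetyl groups to the tail of histone H3, a mark found at the start of active genes. It works as a subunit of the SAGA coactivator complex, where an ADA2 adaptor, ADA3 and SGF29 form its enzymatic module and TRA1, TAF and SPT proteins form the rest. In Arabidopsis, mutants of GCN5 and of its adaptor ADA2B are known as dwarf plants with altered leaves and flowers, and GCN5 has been studied for its part in the responses to light, cold and auxin.

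The values are the authors' deposited signal, which is not in whole numbers, so the read depth behind each value is unknown. They sum to between 31898569.7 and 36187148 in the gcn5 libraries and to between 39255132 and 40402902.5 in the Col-0 libraries. Levels are given below on this scale and are compared within a gene only. A change is the difference between the genotype means of log2(value + 1), gcn5 minus Col-0, and a gene is called at an adjusted p under 0.05 by limma with Benjamini-Hochberg adjustment over all genes tested. The gcn5 libraries varied more than the Col-0 libraries, with a median SD over genes of 0.453 against 0.279 on the log2 scale. Over all genotypes, whose spread the fit pooled, this SD ran from 0.115 in ada2b-c to 0.485 in spc. Library 3 of gcn5 differed from the other two in its slope of signal on transcript length, which was, in log2 units per log2 unit of length, -0.64, against 0.20 and -0.01 in the other gcn5 libraries, and the Col-0 slopes ran from -0.63 to -0.22. The lowest values are not written alike in all libraries: exact zeros occur in gcn5 libraries 1 and 2 but not in gcn5 library 3 or in Col-0, where the lowest values are tiny positive numbers, while the genes below 1 number 10482 to 10915 in gcn5 libraries and 10447 to 10633 in Col-0 libraries. A value under 1e-09 is therefore printed as 0 below.

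At this threshold 7994 genes, 34.3% of those tested, differed between gcn5 and Col-0. Of these, 3630 were higher in gcn5, which is 15.6% of all genes tested, and 4364 were lower, which is 18.7%. Each list count below is to be set beside these shares. A log2 change of at least 1, which is a 2-fold difference, was seen for 2364 of the higher and 3028 of the lower genes, and a change of at least 3 for 380 and 515. Libraries of the 2 genotypes did not overlap for 9734 genes, 41.8% of those tested. The balance of directions depends on scale: with every library brought to the same total, 4907 genes were higher and 2964 lower, and the median change of all genes moved to 0.22. Without gcn5 library 3, 4560 genes were higher and 4405 lower. When the 6 libraries were fitted alone, so that only their own spread was used, 5429 genes were called, 2129 higher and 3300 lower. Protein-coding genes were called more often, at 35.4%, than long noncoding RNAs, at 15.0%. Genes called higher had a median transcript length of 1891.5 bases, genes called lower 1529 bases and genes not called 1597 bases.

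**Figure D1:**
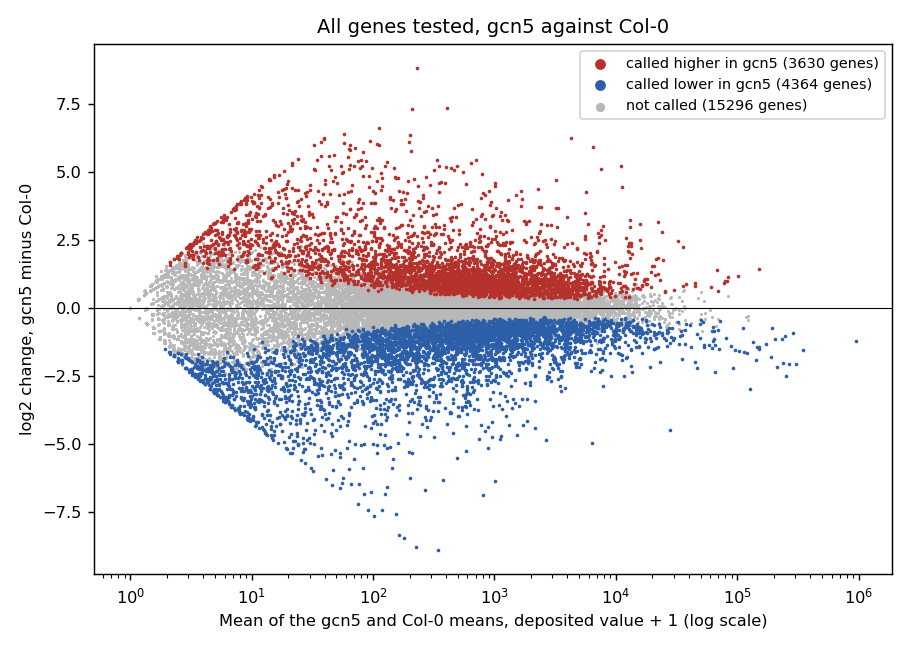
Each point is 1 of the 23290 genes tested, with the mean of its gcn5 and Col-0 levels on the x axis (deposited value + 1, log scale) and its log2 change, gcn5 minus Col-0, on the y axis. The 3630 genes called higher in gcn5 and the 4364 called lower are coloured, above and below the line at 0.

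The targeted gene itself was still read in the mutant. GCN5 had 290.1, 275 and 260.2 in the gcn5 libraries, against 429, 332 and 353 in the Col-0 libraries. Every gcn5 library lay below every Col-0 library, but the change of -0.43 ± 0.21 (SE; adjusted p = 0.123) was not called. Of the 21 genes for subunits of the GCN5 complex, 6 were higher in gcn5, beside 15.6% of all genes, and none was lower, with a median change of 0.50. The highest changes were those of AT1G72390, AT2G17930 and AT4G36080, at 1.89 ± 0.56, 1.61 ± 0.44 and 1.52 ± 0.50 (SE). In all 3 genes gcn5 library 3 lay within the range of Col-0, and all 3 calls were lost without gcn5 library 2. TAF12B, a histone-fold subunit shared with the general factor TFIID, had 931, 1018 and 512 in gcn5 and 244, 467 and 288 in Col-0, without overlap, and rose by 1.29 on the log2 scale. ADA2A and ADA2B, the alternative adaptors of GCN5, were not called, at 0.91 ± 0.48 and 0.06 ± 0.39. These counts rest on few libraries: 1 subunit was called higher without gcn5 library 2, 3 without Col-0 library 3, and 1 when the 6 libraries were fitted alone. With a replicate block and a correction for length and GC content on the 6 libraries, 10 were higher and 1 was lower. Without gcn5 library 3 or Col-0 library 2, 1 was lower, and with the length slope as a covariate 2 were.

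Genes of other enzymes that write or remove histone acetylation were called in both directions, 4 of 11 acetyltransferases and 5 of 13 deacetylases, beside 34.3% of all genes. Among the acetyltransferases, 3 were higher in gcn5 and 1 was lower. HAC2, of the p300/CBP type, had 29.3, 18.6 and 18.4 in the gcn5 libraries and was at 0 in all Col-0 libraries. The lower one was HAF2, an acetyltransferase of the TAF1 type, with 1.73, 0 and 2.14 in the gcn5 libraries, against 17.1, 21.9 and 24.3 in the Col-0 libraries. Its levels did not overlap between the genotypes, and its change was -3.42 ± 0.68 (SE; adjusted p = 5.71e-04). HAC1, a relative of HAC2, had 1026, 1131 and 234 in gcn5 and 225, 243 and 156 in Col-0, so gcn5 library 3 fell within the Col-0 range while the fit called it higher at 1.66 ± 0.50 (SE; adjusted p = 0.0136), a call lost without gcn5 library 1 or 2 or Col-0 library 3. The count of higher acetyltransferases was 1 without any one of these 3 libraries, and 6 without gcn5 library 3. Of the deacetylase genes, 4 were higher and 1 was lower, the median change was 0.46, and 7 were higher without gcn5 library 3. HDA5, a class II enzyme, had 2352, 2201 and 1891 in gcn5 and 1090.2, 1012 and 848 in Col-0, and rose by 1.13 on the log2 scale. HDA19, the deacetylase best known as a partner of transcriptional corepressors, rose by 0.72. Among 10 genes named in earlier work as targets of GCN5, only CTL1, a chitinase-like protein of cellulose deposition, was called, at -1.12 ± 0.29 (SE; adjusted p = 0.00462). The median change of the 10 was -0.37. The number called lower moved both ways: it was 0 with equal library totals and 2 without gcn5 library 1 or 3. It was 3 with the correction for transcript length and GC content or with a replicate block. FRD3, the citrate exporter that moves iron to the shoot, was not called, at 1.78 ± 0.92 (SE; adjusted p = 0.142).

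Clock genes of the morning and of the evening moved in opposite directions. The clock is a loop in which the morning factors CCA1 and LHY repress evening genes, the PRR proteins repress CCA1 and LHY in turn through the day, and the evening complex of ELF3, ELF4 and LUX represses PRR9 at night. Of 22 clock genes, 8 were lower in gcn5 and 6 were higher, against 18.7% and 15.6% of all genes. With any single library left out, the lower genes stayed at 8 and the higher ones numbered 5 to 9. PRR9 had 32.0, 12.7 and 19.5 in the gcn5 libraries, against 1034, 849 and 973 in the Col-0 libraries. CCA1 had 64.0, 31.3 and 5.64 in the gcn5 libraries, against 499.7, 545 and 361 in the Col-0 libraries. LNK3, of a small family of coactivators that act with RVE factors, had 197, 211 and 331 in gcn5 and 2247, 2821 and 3015 in Col-0. Each of these genes was lower in every gcn5 library than in any Col-0 library, and for CCA1 the gcn5 libraries themselves spread widely, with library 3 the lowest. The changes were -5.50 ± 0.51 (SE; adjusted p = 5.57e-08) for PRR9, -4.26 ± 0.55 (SE; adjusted p = 4.28e-06) for CCA1 and -3.47 ± 0.21 (SE; adjusted p = 1.75e-10) for LNK3. LHY, LNK2, RVE8, LNK1 and RVE4 also fell, with log2 changes of -2.26, -2.05, -1.83, -1.52 and -1.39.

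Among the evening genes, BOA, a close relative of LUX, had 784, 724 and 921 in the gcn5 libraries, against 56.7, 122 and 67.7 in the Col-0 libraries. TOC1, the evening repressor of CCA1 and LHY, had 7911, 7812 and 7872 in the gcn5 libraries, against 1381, 2026 and 1779 in the Col-0 libraries. Both were higher in every gcn5 library than in any Col-0 library, and TOC1 was nearly even among the gcn5 libraries. Their changes were 3.36 ± 0.21 (SE; adjusted p = 2.90e-10) and 2.2 ± 0.21 (SE; adjusted p = 7.31e-08). All 3 genes of the evening complex rose, ELF4 by 1.78, LUX by 1.77 and ELF3 by 1.65 on the log2 scale. The blue-light receptor FKF1 rose by 0.95, a call lost without gcn5 library 1 or Col-0 library 3. GI, PRR3, PRR5, PRR7, ZTL, LKP2, CHE and AT5G52660 were not called, with changes between -0.24 and 0.94. Because transcripts of these genes cycle over the day and the labels give no hour of collection, a shift in the hour between the genotypes cannot be told apart from a change of level, and its part in these values, and in those of other genes that cycle, was not tested.

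**Figure D2:**
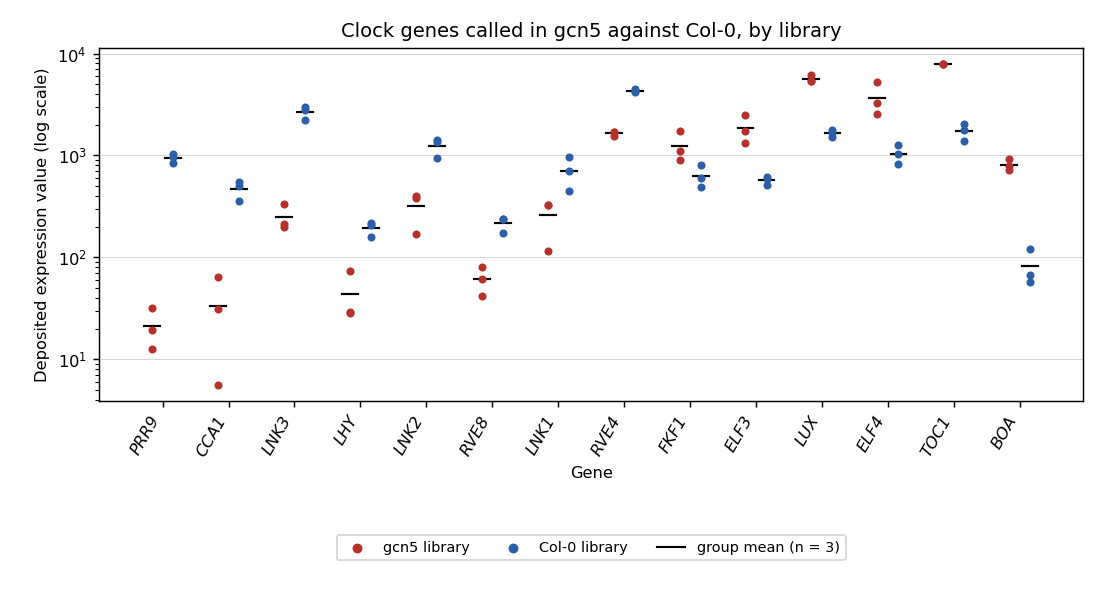
Deposited expression values (y axis, log scale) of the 14 clock genes called in gcn5 against Col-0 (x axis), with 1 point per library, gcn5 left and Col-0 right for each gene, and a bar at each group mean (n = 3). The 8 genes from PRR9 to RVE4 are lower in gcn5 and the 6 from FKF1 to BOA are higher.

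The evening element, spelled AAAATATCT, is the sequence through which CCA1 and RVE8 are known to act on evening genes. Within the 250 bases upstream of the annotated start, on either strand, it was found in 2.36% of all 27443 protein-coding genes of the reference, in 4 of the 6 clock genes that rose (TOC1, LUX, FKF1 and BOA) and in 0 of the 8 that fell. Of all protein-coding genes called higher, 2.90% held the evening element, and 2.81% of those called lower did. Clock genes that were not called were not counted separately. The G-box CACGTG was found in 4 of the 8 clock genes that fell (CCA1, LHY, PRR9 and LNK3). It was also found in 2 of the 6 that rose (LUX and BOA) and in 6.49% of all genes. The upstream stretches of the 3 evening genes described above, read 5′ to 3′ on the strand of the gene from the TAIR10.1 reference of RefSeq, are shown with the evening element, or its reverse complement, in capitals. They lie at chr5:24674713-24674962 for TOC1, chr3:17182792-17183041 for LUX and chr5:24003638-24003887 for BOA, all on the plus strand, and none overlaps another gene. The match is a description of letters, and binding was not measured.
TOC1: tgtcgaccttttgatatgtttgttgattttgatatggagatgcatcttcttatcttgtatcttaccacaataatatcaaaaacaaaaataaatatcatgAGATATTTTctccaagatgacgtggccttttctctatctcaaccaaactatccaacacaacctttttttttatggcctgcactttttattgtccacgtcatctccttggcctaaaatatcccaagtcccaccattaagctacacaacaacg
LUX: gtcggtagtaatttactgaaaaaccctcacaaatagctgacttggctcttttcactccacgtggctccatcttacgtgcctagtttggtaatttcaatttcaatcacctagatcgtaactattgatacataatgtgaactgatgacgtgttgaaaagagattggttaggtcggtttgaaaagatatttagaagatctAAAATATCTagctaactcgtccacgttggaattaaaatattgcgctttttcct
BOA: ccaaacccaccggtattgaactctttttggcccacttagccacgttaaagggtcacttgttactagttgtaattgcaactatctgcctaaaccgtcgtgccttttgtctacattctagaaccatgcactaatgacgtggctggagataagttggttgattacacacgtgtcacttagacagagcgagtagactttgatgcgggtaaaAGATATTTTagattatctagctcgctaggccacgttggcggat
The element begins 151 bases before the start of TOC1, 53 before that of LUX and 43 before that of BOA.

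Light-harvesting genes were lower in gcn5 throughout the antenna. All 16 tested genes for chlorophyll-binding antenna proteins of photosystems I and II fell, with a median change of -1.85. LHCB5, a minor antenna protein of photosystem II, had 105075, 90901 and 88588 in the gcn5 libraries, against 431484, 316104 and 403735 in the Col-0 libraries. LHCA3, of the photosystem I antenna, had 91829.6, 84837 and 77416 in the gcn5 libraries, against 302046, 309285 and 275994 in the Col-0 libraries. The libraries of the 2 genotypes did not overlap for either gene, and the changes were -2.01 ± 0.17 (SE; adjusted p = 2.04e-08) and -1.81 ± 0.20 (SE; adjusted p = 8.47e-07). The weakest change of the list was that of LHCB4.1, at -0.72 ± 0.19. The LHCB1 and LHCB2 genes are near-identical copies, so the split of reads among them is uncertain, and LHCB1.5 was listed at or near 0 and not tested. All 16 were called with any library left out and 15 with equal library totals. In a bulk sample, less RNA per cell and fewer leaf cells in the sample cannot be told apart. Summed over the antenna list, the signal was 1600490 to 1931960 in gcn5 libraries and 5430490 to 5940370 in Col-0 libraries.

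Of 19 Calvin cycle genes, 13 fell and none rose, beside 18.7% and 15.6% of all genes, with a median change of -0.71. GAPA-2, a subunit of the plastid glyceraldehyde-phosphate dehydrogenase, SBPASE, the bisphosphatase that limits regeneration of the CO2 acceptor, and FBA1, a plastid aldolase, fell, with log2 changes of -1.5, -1.4 and -1.28. PRK and TKL1 were not called, at -0.45 and 0.35. The count was 7 with equal library totals and 7 when the 6 libraries were fitted alone, so the smaller changes of this list depend on the scale and on the estimate of spread. Chlorophyll synthesis had 11 of 17 genes lower, with a median change of -0.83, and 7 with equal totals. PORA, the protochlorophyllide reductase that is otherwise most active in etiolated seedlings, had 31.3, 15.7 and 3.43 in the gcn5 libraries, against 1956, 1537 and 1249 in the Col-0 libraries. Its change of -6.86 ± 0.73 (SE; adjusted p = 3.91e-07) was among the 12 largest decreases of all genes tested. HEMA1, the enzyme that commits glutamate to tetrapyrroles, had 4581, 3157 and 2911 in gcn5 and 19837, 20375 and 19212 in Col-0. CRD1, PCB2 and CAO, which act late in the pathway, fell, with log2 changes of -1.87, -1.73 and -1.64. PORB and the magnesium chelatase subunit CHLD were not called, at -0.63 and 0.07.

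Of 16 regulators of greening and light responses, 10 were lower and 2 were higher. BBX16, a B-box protein, had 28.3, 19.6 and 23.8 in the gcn5 libraries, against 2042, 1935 and 2034 in the Col-0 libraries, with tight groups and a change of -6.35 ± 0.51 (SE; adjusted p = 8.96e-09). GNC, a GATA factor that promotes chloroplast genes, had 231, 289 and 410.1 in gcn5 and 1057, 1605 and 1521 in Col-0. The GLK1 and GLK2 factors, which switch on genes of the photosystems, fell, with log2 changes of -1.59 and -1.54. HY5 and HYH, the bZIP factors of light growth, fell, at -1.43 and -1.94. CGA1, the paralog of GNC, was called higher at 0.84 ± 0.31 although its libraries overlapped (139, 94.9 and 183 in gcn5 and 58.8, 64.7 and 108 in Col-0), and BBX14 was higher at 0.94 ± 0.17. In all but 2 of the 6 fits with a library left out, only 1 of these 2 was called higher.

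Cold-response genes were mostly lower. Of 23 genes, 17 fell and 2 rose, with a median change of -1.54, and 14 to 17 were lower when a library was left out. GOLS3, a galactinol synthase of the raffinose pathway that is induced by cold, had 4.96, 14.7 and 7.60 in the gcn5 libraries, against 764, 723 and 745 in the Col-0 libraries. DDF1, an AP2-type factor related to the CBF proteins, had 15.3, 21.5 and 21.6 in gcn5 and 311, 363 and 447 in Col-0. ERD10, a dehydrin, had 2318, 1870.3 and 1375 in the gcn5 libraries, against 7494, 7942 and 6491 in the Col-0 libraries. In each case the highest gcn5 library was below the lowest Col-0 library, and the changes were -6.32 ± 0.54 (SE; adjusted p = 1.97e-08), -4.2 ± 0.60 (SE; adjusted p = 1.46e-05) and -2.01 ± 0.22 (SE; adjusted p = 6.26e-07). COR15A, a chloroplast protein that protects membranes in frost, and RD29A fell, with log2 changes of -1.60 and -1.23. Against this direction, COR27 had 7589, 10064 and 14637 in the gcn5 libraries, against 416, 519 and 716 in the Col-0 libraries, a rise of 4.27 ± 0.27 (SE; adjusted p = 3.19e-10), and AT4G33980 rose by 2.36. COR27 is a repressor known from both the cold response and the clock.

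The cold element CCGAC, the letters bound by CBF proteins, stood in the 250 upstream bases of 5 of the 17 cold genes that fell (COR15A, RD29A, GOLS3, ERD7 and XERO2) and of 12.0% of all protein-coding genes. It also stood upstream of 12.8% of all protein-coding genes called lower. Among the Aux/IAA genes that fell, described below, 8 of 22 held it, so the letters are not particular to the cold genes. The stretch of COR15A at chr2:17712331-17712580, on the minus strand and printed 5′ to 3′ along the gene, is shown as an example with 2 copies. Capitals mark CCGAC or its reverse complement.
COR15A: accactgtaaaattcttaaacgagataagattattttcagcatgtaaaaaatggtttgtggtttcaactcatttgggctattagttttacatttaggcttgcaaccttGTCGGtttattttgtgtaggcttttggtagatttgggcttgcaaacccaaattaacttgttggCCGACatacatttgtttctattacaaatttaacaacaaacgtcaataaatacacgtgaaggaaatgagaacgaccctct
The copies begin 142 and 79 bases before the start of COR15A.

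Genes of abscisic acid, the hormone of drought and dormancy, were also more often lower. Of 23 tested, 12 fell and 2 rose, with a median change of -0.74, and 7 fell with equal library totals. ABA1, the zeaxanthin epoxidase at the head of the pathway, had 3187, 2348 and 1625 in gcn5 and 13285, 10103 and 9027 in Col-0. CYP707A2, the 8′-hydroxylase that inactivates the hormone, had 29.1, 29.4 and 24.9 in the gcn5 libraries, against 189, 172 and 198 in the Col-0 libraries. HAI2, a phosphatase induced by the hormone, had 6.76, 9.80 and 8.64 in gcn5 and 50.3, 74.8 and 71.9 in Col-0. All of these were separated between the genotypes, with changes of -2.21 ± 0.28 (SE; adjusted p = 4.58e-06), -2.70 ± 0.41 (SE; adjusted p = 3.01e-05) and -2.82 ± 0.52 (SE; adjusted p = 2.52e-04). The response factor ABF4 and the cofactor enzyme ABA3 rose by 0.97 and 1.16 on the log2 scale. Heat-shock genes took no common direction, with 5 of 19 tested higher and 3 lower, beside 15.6% and 18.7% of all genes, with a median of -0.04, and 3 higher without gcn5 library 2 or Col-0 library 3. AT5G59720, a small heat-shock chaperone, had 16.6, 1.92 and 10.8 in the gcn5 libraries, against 217, 171 and 158 in the Col-0 libraries, while HSP90.1 and HSP101 rose by 1.34 and 1.25.

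Genes of salicylic acid and N-hydroxypipecolic acid, the signals of resistance to biotrophic pathogens, were largely higher. Of 15 genes, 11 rose and 3 fell, with a median change of 2.11, and both counts were the same with any library left out. SARD1, a transcription factor that switches on ICS1, had 6064, 5799 and 3932 in the gcn5 libraries, against 698, 605 and 547 in the Col-0 libraries. EDS5, the exporter of isochorismate from the chloroplast, had 1372, 1445 and 911 in the gcn5 libraries, against 173, 238 and 136 in the Col-0 libraries. Both were higher in every gcn5 library, with changes of 3.07 ± 0.18 (SE; adjusted p = 8.31e-11) and 2.77 ± 0.23 (SE; adjusted p = 1.54e-08). ICS1, the isochorismate synthase, rose by 2.32, and PBS3, which conjugates isochorismate to glutamate, by 2.11. DLO1, a hydroxylase that removes salicylic acid, had 855, 935 and 556 in the gcn5 libraries, against 18.203, 34.2 and 12.4 in the Col-0 libraries, a rise of 5.20 ± 0.39 (SE; adjusted p = 3.05e-09). The 3 genes that fell were BSMT1, which methylates salicylic acid, EPS1, which helps release it, and the glucosyltransferase UGT74F2. BSMT1 had 1.65, 2.94 and 3.22 in the gcn5 libraries, against 76.9, 97.9 and 80.9 in the Col-0 libraries, a change of -4.60 ± 0.64 (SE; adjusted p = 1.15e-05). EPS1 and UGT74F2 fell, with log2 changes of -1.81 and -1.65.

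WRKY factors, which bind the W-box of defence genes, followed with 16 of 25 higher and 3 lower, a median of 1.22. WRKY51 had 954, 1425 and 2200.1 in the gcn5 libraries, against 31.1, 65.4 and 47.6 in the Col-0 libraries. WRKY75 had 443, 671 and 991 in the gcn5 libraries, against 15.1, 25.5 and 45.1 in the Col-0 libraries. WRKY38, a repressor of basal defence, had 428, 539 and 749 in gcn5 and 44.9, 58.7 and 48.8 in Col-0. The groups were apart for all of these, and the changes were 4.94 ± 0.38 (SE; adjusted p = 4.74e-09), 4.63 ± 0.38 (SE; adjusted p = 1.34e-08) and 3.44 ± 0.24 (SE; adjusted p = 1.33e-09). WRKY40, WRKY11 and WRKY53 fell, with log2 changes of -1.01, -0.89 and -0.57. The call of WRKY53 was lost without gcn5 library 2 or 3 or Col-0 library 2 or 3, and with equal totals only 1 WRKY gene was lower. WRKY33, the activator of camalexin genes, and WRKY70 were not called, at 0.31 and -0.05. Immune receptors and their partners changed less, with 12 of 21 tested higher, none lower and a median of 0.80. SOBIR1, a co-receptor of receptor-like proteins, had 8674, 7926 and 2112 in the gcn5 libraries, against 1437, 1621 and 599 in the Col-0 libraries, a rise of 2.23 ± 0.47 (SE; adjusted p = 8.66e-04). EDS1, the hub of signalling from TIR-type receptors, rose by 1.82, BAK1 by 1.21 and NPR1, a receptor of salicylic acid, by 1.12. FLS2 and EFR, which perceive bacterial flagellin and elongation factor, were not called, at -0.12 and -0.15. When the 6 libraries were fitted alone, 5 of the receptor list were higher, and 8 to 16 were when a library was left out of the full fit.

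Cysteine-rich receptor kinases of the CRK cluster on chromosome 4 showed 13 of 20 genes higher and 2 lower, with a median of 1.02. CRK7 had 849.7, 870.1 and 531 in the gcn5 libraries, against 28.8, 23.2 and 36.4 in the Col-0 libraries. CRK23 had 227, 236 and 129.7 in the gcn5 libraries, against 11.7, 5.93 and 11.0 in the Col-0 libraries. CRK21 went the other way, with 152, 101 and 65.0 in the gcn5 libraries, against 1330.4, 1041 and 741 in the Col-0 libraries. The 2 genotypes were apart for each of these, and the changes were 4.61 ± 0.29 (SE; adjusted p = 2.84e-10), 4.23 ± 0.47 (SE; adjusted p = 7.81e-07) and -3.32 ± 0.37 (SE; adjusted p = 6.36e-07). CRK5, the other gene called lower, lost its call without gcn5 library 1, gcn5 library 2, Col-0 library 2 or Col-0 library 3. The count of higher CRK genes was 8 when the 6 libraries were fitted alone, and since the genes are close copies in tandem, reads may be shared between neighbours. A W-box, searched as TTGACC or TTGACT, was found upstream of 9 of the 13 CRK genes that rose, 8 of the 16 WRKY genes that rose and 2 of the 11 salicylic acid genes that rose. Over the whole genome it stood in 28.4% of genes, in 34.1% of all protein-coding genes called higher and in 24.5% of those called lower. CRK11, which rose by 1.85, held 4 copies, and its stretch at chr4:12143859-12144108 on the minus strand is shown 5′ to 3′ along the gene with TTGACT or its reverse complement in capitals.
CRK11: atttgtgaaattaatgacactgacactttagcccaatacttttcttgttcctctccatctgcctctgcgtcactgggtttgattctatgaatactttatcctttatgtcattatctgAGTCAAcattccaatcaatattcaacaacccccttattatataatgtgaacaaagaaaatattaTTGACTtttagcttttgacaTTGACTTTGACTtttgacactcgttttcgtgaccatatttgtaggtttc
The copies begin 133, 69, 49 and 43 bases before the start, and the last pair stand end to end.

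**Figure D3:**
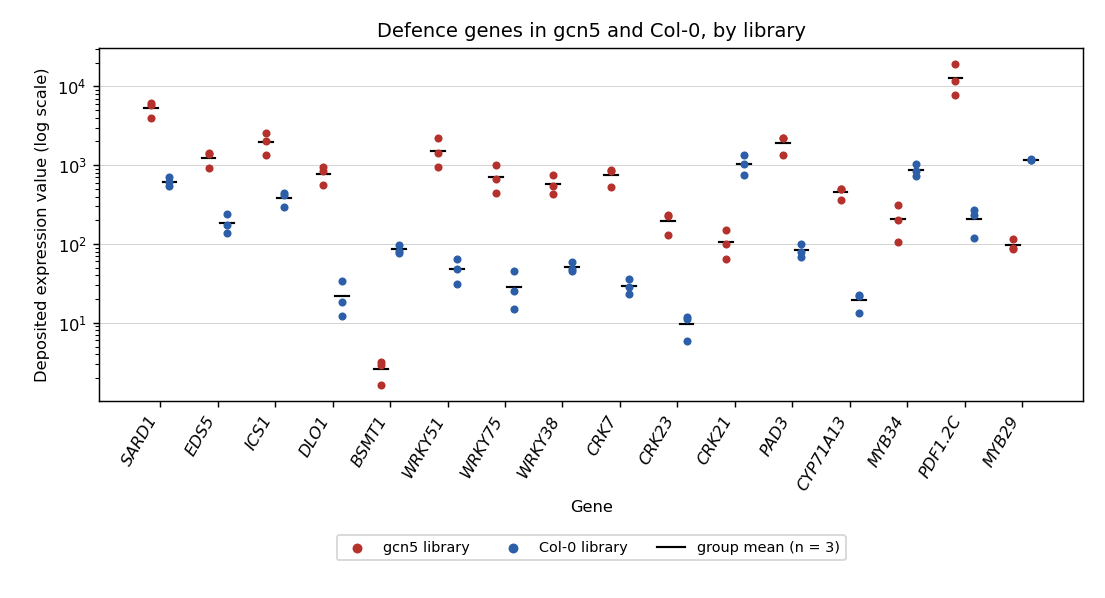
Deposited expression values (y axis, log scale) of 16 defence genes (x axis), with 1 point per library, gcn5 left and Col-0 right for each gene, and a bar at each group mean (n = 3). BSMT1, CRK21, MYB34 and MYB29 are lower in gcn5, and the other 12 genes are higher, in all cases without overlap.

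Camalexin, the indole phytoalexin of Arabidopsis, and indole glucosinolates share early steps, and 10 of 15 genes of these branches were higher in gcn5, with 2 lower and a median of 1.5. PAD3, which makes camalexin in the final step, had 2213, 2222 and 1332 in the gcn5 libraries, against 101, 68.2 and 78.7 in the Col-0 libraries. CYP71A13, which acts before it, had 498, 499 and 359.7 in the gcn5 libraries, against 22.4, 21.8 and 13.4 in the Col-0 libraries. Both were higher in every gcn5 library than in any Col-0 library, with changes of 4.50 ± 0.26 (SE; adjusted p = 8.55e-11) and 4.50 ± 0.26 (SE; adjusted p = 1.15e-10). Among the MYB factors of the indole branch, MYB51 rose by 1.1 on the log2 scale. MYB34, by contrast, had 107, 201 and 309 in the gcn5 libraries, against 738, 849 and 1046 in the Col-0 libraries, a change of -2.2 ± 0.33 (SE; adjusted p = 2.43e-05). PEN2, the myrosinase that activates indole glucosinolates, was not called, at -0.14.

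Aliphatic glucosinolates, made from methionine, had 7 of 17 genes lower and 1 higher, beside 18.7% and 15.6% of all genes, with a median of -0.42. MYB29, a main activator of the pathway, had 117, 90.0 and 85.4 in the gcn5 libraries, against 1149, 1163 and 1185 in the Col-0 libraries. The Col-0 libraries were nearly equal and the gcn5 libraries far below them, a change of -3.58 ± 0.41 (SE; adjusted p = 9.14e-07). MYB28, the other main activator, and the plastid keto-acid transporter BAT5 fell, with log2 changes of -1.78 and -1.41. Among the enzymes, the glutathione transferase gene GSTU20 fell, at -0.57, and CYP79F1, MAM1 and BCAT4, at the entry of the pathway, were not called, at -0.17, -0.16 and -0.04. AT2G31790, SOT17 and FMO GS-OX1 were called lower, at -1.12, -0.74 and -0.74. The one gene called higher was MAM3, at 1.05, and its call was lost without gcn5 library 1, gcn5 library 2 or Col-0 library 3. The lower genes numbered 4 without Col-0 library 1, 3 with equal library totals and 11 with the length slope as a covariate.

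The branch of defence run jointly by ethylene and jasmonate had 7 of 9 genes higher, none lower and a median of 2.46. PDF1.2C, a plant defensin, had 7685, 11748 and 19247 in the gcn5 libraries, against 119.8, 235 and 269 in the Col-0 libraries, a rise of 5.93 ± 0.42 (SE; adjusted p = 1.52e-09), although the PDF1.2 genes are close copies and their reads may be shared. HCHIB, a basic chitinase, had 926, 1186 and 1065 in gcn5 and 231, 188 and 164 in Col-0, and PR4, a hevein-like protein, rose by 2.46. ERF1, an activator of the branch, was not called, at -0.27. The list of jasmonate synthesis and the JAZ repressors also holds MYC2, VSP1 and VSP2. It had 4 of 22 tested genes higher and 6 lower, VSP1 and VSP2 among the lower, beside 15.6% and 18.7% of all genes. The median of the list was -0.15. With equal totals it was 0.09, and 4 genes were higher and 4 lower. At a log2 change of at least 1, none was higher and 2 were lower. AOS and AOC1, early enzymes of synthesis, fell, at -0.92 and -1.25, while OPR3, a later enzyme, rose by 0.87. Of the JAZ genes, JAZ10 and JAZ12 rose by 0.97 and 0.65, and the other 8 were not called. VSP2, a storage protein gene induced by jasmonate, had 276, 146 and 112 in the gcn5 libraries, against 2619, 1903 and 1504 in the Col-0 libraries, the largest change of the list at -3.56 ± 0.29 (SE; adjusted p = 1.18e-08). VSP1, its close copy, was called lower at -0.94, a call lost without Col-0 library 1 or gcn5 library 3.

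Early auxin-response genes were lower as a family. Of 28 Aux/IAA genes, which encode short-lived repressors of auxin signalling, 22 fell and none rose, with a median of -1.21, and 17 to 20 fell when a library was left out. IAA27 had 731, 819 and 802 in the gcn5 libraries, against 3027, 2889.5 and 3024 in the Col-0 libraries. IAA1 had 132, 118 and 170.5 in the gcn5 libraries, against 759, 854 and 920.4 in the Col-0 libraries. IAA7 had 2837, 3304 and 3913 in gcn5 and 10467, 12391 and 13167 in Col-0. None of these overlapped between the genotypes, and the changes were -1.93 ± 0.16 (SE; adjusted p = 8.96e-09), -2.60 ± 0.23 (SE; adjusted p = 3.86e-08) and -1.85 ± 0.14 (SE; adjusted p = 3.03e-09). IAA9, IAA10, IAA18 and IAA26 were not called, with changes between 0.06 and 0.48. Of 14 auxin transport genes, 7 fell and none rose, with a median of -0.86. PIN7, an efflux carrier of the plasma membrane, had 1991, 1980.0 and 1395 in the gcn5 libraries, against 6094, 6174 and 5346 in the Col-0 libraries, a change of -1.73 ± 0.19 (SE; adjusted p = 5.91e-07). The influx carriers AUX1, LAX1, LAX2 and LAX3 fell, with log2 changes of -0.96, -1.3, -1.37 and -1.16.

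Gibberellin genes, 23 of them tested, gave 9 lower and 3 higher, beside 18.7% and 15.6% of all genes, with a median of -0.83. GA20OX1, a late enzyme of synthesis, had 11.2, 12.7 and 2.29 in the gcn5 libraries, against 68.3, 71.3 and 34.6 in the Col-0 libraries. GA2OX1, which inactivates the hormone, had 29.3, 9.74 and 23.7 in gcn5 and 142, 142 and 139.6 in Col-0. The receptor gene GID1B had 979.5, 1086 and 1042 in the gcn5 libraries, against 249.9, 301 and 194 in the Col-0 libraries. GA20OX1 and GA2OX1 were lower, at -2.78 ± 0.60 (SE; adjusted p = 0.00119) and -2.83 ± 0.75 (SE; adjusted p = 0.00611), and the receptor was higher, at 2.08 ± 0.19 (SE; adjusted p = 5.64e-08). Other inactivating enzymes went both ways: GA2OX6 fell, at -1.81, while GA2OX4 and GA2OX2 were called higher, at 2.55 and 0.50, each call being lost in at least 3 of the 6 fits with a library left out. The DELLA repressors RGL3, RGL1 and RGA fell, with log2 changes of -1.80, -1.19 and -0.72. Without Col-0 library 1, GID1B was the only gene of the list still called higher.

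Wall-loosening genes leaned the same way. Of 27 expansins and xyloglucan enzymes, 16 fell and 5 rose, with a median of -0.54. EXPA8 had 707, 929.8 and 973 in the gcn5 libraries, against 5622, 7423 and 7172 in the Col-0 libraries. EXPB1 had 32.4, 54.9 and 21.7 in gcn5 and 529.7, 612 and 533 in Col-0. Their changes were -2.96 ± 0.21 (SE; adjusted p = 1.91e-09) and -4.00 ± 0.52 (SE; adjusted p = 5.13e-06), and the genotypes did not overlap. XTH33, by contrast, had 605, 691 and 663 in the gcn5 libraries, against 126, 105 and 71.1 in the Col-0 libraries, a rise of 2.72 ± 0.25 (SE; adjusted p = 5.96e-08), and XTH9 rose by 1.34. Without Col-0 library 1, 3 genes of this list were higher, and 2 were when the 6 libraries were fitted alone. The lower genes numbered 11 with equal library totals and 9 at a log2 change of at least 1. Wax synthesis had 8 of 17 genes lower and none higher, with a median of -0.59. CER4, the reductase that makes primary alcohols, had 101, 94.9 and 110.1 in the gcn5 libraries, against 1248, 1041 and 1138 in the Col-0 libraries. MAH1, the alkane hydroxylase of stem wax, had 679, 417 and 474 in gcn5 and 3541, 3121 and 3542 in Col-0. Their changes were -3.47 ± 0.29 (SE; adjusted p = 1.71e-08) and -2.73 ± 0.41 (SE; adjusted p = 2.60e-05). The wax ester synthase WSD1 fell, at -3.07, and 5 wax genes were lower with equal library totals.

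**Figure D4:**
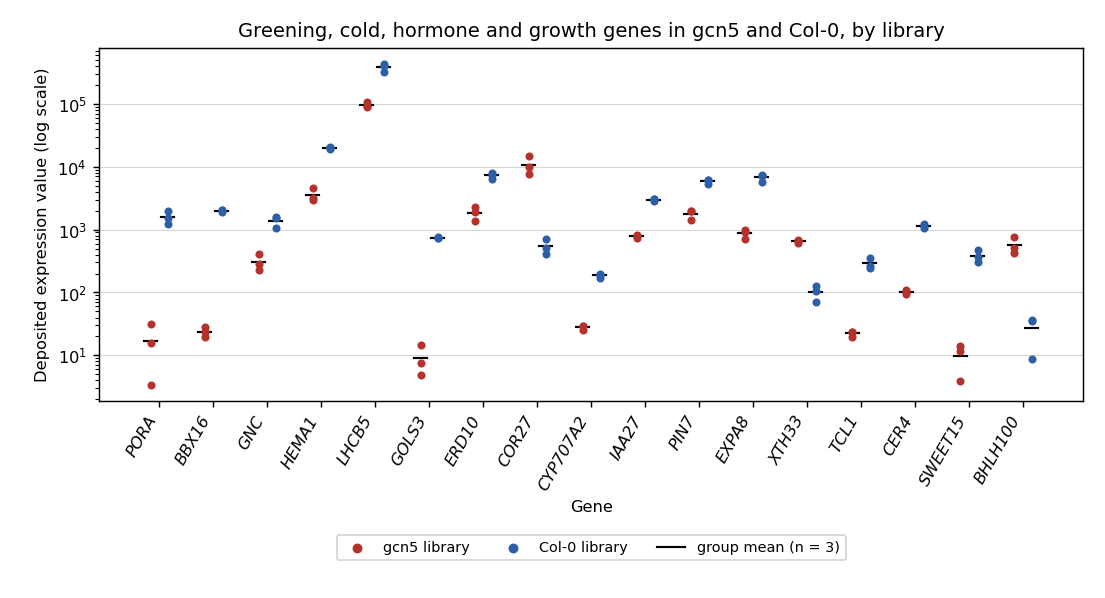
Deposited expression values (y axis, log scale) of 17 genes of greening, cold, hormones, walls, hairs, wax, senescence and iron (x axis), with 1 point per library, gcn5 left and Col-0 right for each gene, and a bar at each group mean (n = 3). COR27, XTH33 and BHLH100 are higher in gcn5 and the other 14 genes are lower, in all cases without overlap.

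Leaf-hair patterning is set by small MYB proteins that inhibit hair formation in neighbouring cells, and 4 of them fell. TCL1 had 19.6, 23.5 and 23.7 in the gcn5 libraries, against 249, 263 and 358 in the Col-0 libraries. TRY had 3.02, 27.4 and 35.4 in the gcn5 libraries, against 128, 153 and 241 in the Col-0 libraries. Both were lower in all gcn5 libraries, with changes of -3.63 ± 0.57 (SE; adjusted p = 5.23e-05) and -3.39 ± 0.66 (SE; adjusted p = 4.23e-04), and CPL3 and ETC2 fell, at -3.11 and -2.08. The activators GL1, GL3 and EGL3 and their target GL2 were not called, with changes between -0.91 and 1.17. Over the 16 genes of the list, 5 were lower and 1 was higher, beside 18.7% and 15.6% of all genes, with a median of -0.87. The higher one, TTG1, at 0.66 ± 0.18, lost its call without Col-0 library 3. The remaining lower gene, GIS, lost its call without gcn5 library 2 or 3 or any one of the Col-0 libraries. CPC and ETC1, also on the list, were not called.

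Flowering-time genes had 10 of 24 tested lower and 3 higher, beside 18.7% and 15.6% of all genes, with a median of -0.35. SNZ and SMZ, a pair of AP2-like repressors of flowering, moved apart. SNZ had 62.3, 76.3 and 93.8 in the gcn5 libraries, against 426, 421 and 646 in the Col-0 libraries. SMZ had 20.112, 46.0 and 82.8 in the gcn5 libraries, against 1.15, 7.95 and 7.68 in the Col-0 libraries. Their changes were -2.66 ± 0.38 (SE; adjusted p = 1.40e-05) and 2.99 ± 0.62 (SE; adjusted p = 8.06e-04). LFY, the switch of floral meristems, had 23.8, 34.3 and 34.5 in the gcn5 libraries, against 6.44, 4.76 and 12.0 in the Col-0 libraries, a rise of 1.93 ± 0.47 (SE; adjusted p = 0.00312), and FUL and SPL9, which promote flowering, fell, at -1.43 and -1.55. FT, the mobile flowering signal, was lower in every gcn5 library, with 9.05, 24.5 and 40.8 in the gcn5 libraries, against 65.1, 78.2 and 46.7 in the Col-0 libraries, a change of -1.52 ± 0.43 (SE; adjusted p = 0.00953), and lost its call without gcn5 library 1 (adjusted p = 0.077). The repressor FLC and the integrator SOC1 were not called, at 0.49 and -0.09. Of 15 floral organ genes tested, 5 were lower and 1 higher, beside 18.7% and 15.6% of all genes. Only 3 were lower without gcn5 library 2, Col-0 library 2 or Col-0 library 3. SEP3, a cofactor of the floral organ genes, and AG, the gene of stamens and carpels, fell, with log2 changes of -1.82 and -1.46. AP1, AP3 and PI were not called, at -0.36, -0.96 and -0.62. Among genes of the tapetum and pollen wall, 5 of 20 tested were higher, beside 15.6% of all genes, 3 without gcn5 library 2, and 1 was lower. Summed over the list, tapetum genes gave 2327 to 3186 in gcn5 and 1702 to 2038 in Col-0. The floral list gave 2048 to 3118 in gcn5 and 2304 to 2805 in Col-0, but AP2, which acts outside the flower as well, was its largest member and rose by 0.83. Without AP2 the floral list gave 666 to 889.7 in gcn5 and 1459 to 1800 in Col-0, without overlap.

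In the shoot meristem and organ boundaries, 6 of 24 genes were higher and 4 lower, beside 15.6% and 18.7% of all genes, with a median of 0.50. GIF1, a coactivator that sets leaf size, had 1468, 1544 and 2189 in the gcn5 libraries, against 689, 740.3 and 952 in the Col-0 libraries, a rise of 1.12 ± 0.19 (SE; adjusted p = 8.92e-05). AS1, which represses meristem genes in leaves, and ANT, a growth factor of organ primordia, rose by 0.84 and 0.73. The meristem genes STM and KNAT1 were not called, at -0.20 and 0.19, nor was WUS, at 1.03 ± 0.82 (SE; adjusted p = 0.359). Without Col-0 library 3 the higher genes numbered 3, and without gcn5 library 2 the lower genes numbered 1. Of 23 mitotic genes, 1 rose and 1 fell, with a median of 0.01. The gene that fell was CYCD3-2, a D-type cyclin, at -1.19 ± 0.17. The call of the gene that rose, AT4G33270 (cell division cycle 20) at 0.86 ± 0.31, was lost in 4 of the 6 fits with a library left out, all but those without Col-0 library 1 or gcn5 library 3. Summed over the list, mitotic genes gave 6883 to 7648 in gcn5 libraries and 9199 to 9330 in Col-0 libraries. Root markers summed to 1342 to 2971 in gcn5 libraries and 521 to 1005 in Col-0 libraries, of which nearly all was PYK10, a glucosidase of root endoplasmic reticulum bodies, which rose by 1.63. Without PYK10 they summed to 2.26 to 15.2 in gcn5 libraries and 9.75 to 37.1 in Col-0 libraries, and of the 8 tested 1 was higher and 2 were lower, with a median of -0.94. Of the 10 seed markers, 9 stood under 1 in every library.

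Senescence genes split into a set that rose and a set that fell. Of 17 genes, 8 were higher and 5 lower, beside 15.6% and 18.7% of all genes, with a median of 0.01. SAG12, a cysteine protease that marks old leaves, had 66.6, 87.1 and 93.9 in the gcn5 libraries, against 6.35, 1.29 and 4.42 in the Col-0 libraries. SAG13 had 1823, 1859.6 and 2139.9 in gcn5 and 231, 232 and 399.6 in Col-0. SWEET15, a sucrose exporter of senescing leaves, had 13.9, 3.88 and 11.8 in the gcn5 libraries, against 308, 475 and 369 in the Col-0 libraries. The changes were 4.2 ± 0.56 (SE; adjusted p = 6.42e-06), 2.80 ± 0.18 (SE; adjusted p = 4.70e-10) and -5.28 ± 0.41 (SE; adjusted p = 5.83e-09). DIN10, induced in darkness and by sugar shortage, rose by 2.40, and NAP, a NAC factor that promotes leaf ageing, fell, at -1.78. NYE1 and ORE1, which drive chlorophyll loss and leaf ageing, were not called, at -0.35 and 0.01. When the 6 libraries were fitted alone, 5 senescence genes were higher.

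Iron genes were divided, with 6 of 17 higher and 5 lower, beside 15.6% and 18.7% of all genes, and a median of -0.03. The lower genes numbered 3 without Col-0 library 3, gcn5 library 2 or gcn5 library 3. BHLH100, of the group of factors induced when iron is low, had 422, 513 and 756 in the gcn5 libraries, against 8.72, 36.6 and 35.3 in the Col-0 libraries, a rise of 4.53 ± 0.45 (SE; adjusted p = 1.43e-07), and BHLH38 rose by 1.99. BTS, a ubiquitin ligase that restrains iron uptake, FRO3, a mitochondrial ferric reductase, and OPT3, a phloem iron transporter, rose by 1.5, 1.42 and 1.02. Ferritins FER1 and FER4, which store iron, fell, with log2 changes of -1.11 and -1.19. NAS4, an enzyme that makes the iron chelator nicotianamine, fell, at -0.98. IRT1, the iron transporter of the root that is induced by shortage, was called lower at -2.39 ± 0.83 (SE; adjusted p = 0.0311), with 9.84, 0 and 0.0529 in the gcn5 libraries, against 20.147, 4.88 and 12.2 in the Col-0 libraries. Its libraries overlapped, and its call was lost without gcn5 library 2, gcn5 library 3, Col-0 library 1 or Col-0 library 3. FRU, the master regulator of iron uptake in roots, and FRO2, its target, were not called, at 0.17 and -0.67. In the anthocyanin and flavonol pathway, 5 of 15 genes tested fell and none rose, beside 18.7% and 15.6% of all genes, with a median of -0.74. In the small RNA machinery, 5 of 14 rose and 1 fell, beside 15.6% and 18.7% of all genes, but 2 rose without gcn5 library 1 or Col-0 library 3 and 9 rose without gcn5 library 3. The gene that fell, AGO7, lost its call without gcn5 library 2 or 3 or any one of the Col-0 libraries. None fell with equal library totals or when gcn5 and Col-0 were fitted alone. With the correction for length and GC content, 2 rose and 3 fell, and with the length slope as a covariate 2 fell. AGO1, the effector of most microRNAs, was called higher at 0.99 ± 0.23 (SE; adjusted p = 0.00195), and DCL1, which makes them, was not called, at 0.47.

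**Figure D5:**
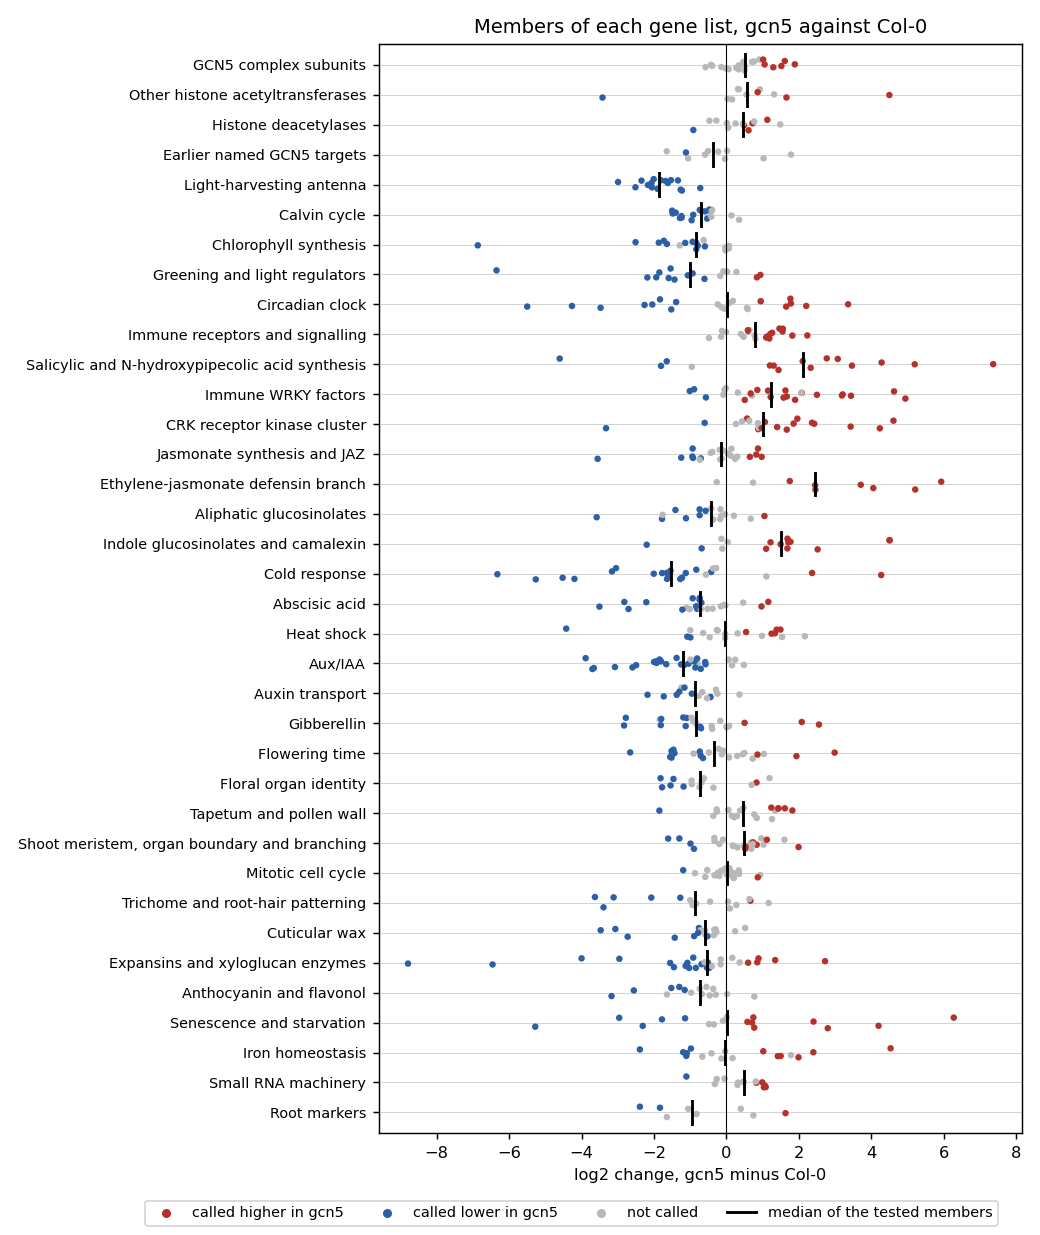
Each point is a tested member of a gene list (rows), at its log2 change, gcn5 minus Col-0 (x axis), coloured by call, with a bar at the median of the list. The salicylic acid list has its median at 2.11 and the defensin branch at 2.46, while the antenna, the cold list and the Aux/IAA family have theirs at -1.85, -1.54 and -1.21.

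Over all genes tested, the 12 largest increases and 12 largest decreases without overlap include genes outside these lists. ARD3, an acireductone dioxygenase of the methionine salvage cycle, had 5799, 7351 and 11969 in the gcn5 libraries, against 114, 84.4 and 112 in the Col-0 libraries. AT5G52720, described as a copper transport protein, had 264, 351 and 558 in the gcn5 libraries, against 1.15, 9.04 and 6.62 in the Col-0 libraries. RLP7, a receptor-like protein, had 250.2, 166 and 140.5 in the gcn5 libraries and at most 6.46 in a Col-0 library. In each of these every gcn5 library was above every Col-0 library, with changes of 6.27 ± 0.29 (SE; adjusted p = 6.29e-12), 6.09 ± 0.52 (SE; adjusted p = 2.05e-08) and 6.13 ± 0.67 (SE; adjusted p = 5.36e-07). A leucine-rich repeat kinase gene, AT5G16900, had 106, 70.5 and 41.2 in the gcn5 libraries and was at 0 in all Col-0 libraries. Among the decreases, the copper amine oxidase gene AT1G31690 was at 0 in all gcn5 libraries and had 252, 174 and 114 in the Col-0 libraries. CHAT, an acetyltransferase that makes the leaf volatile hexenyl acetate, had at most 1.97 in a gcn5 library and 159, 168 and 168 in the Col-0 libraries. The noncoding RNA AT2G01422 had at most 2.14 in a gcn5 library and 185, 244 and 314 in the Col-0 libraries. By a stricter rule, 4 genes stood at 50 or more in every gcn5 library and under 1 in every Col-0 library (AT1G74140, AT2G23830, DIN2 and AT5G14160), and 10 genes the other way round. Among those 10 were SP1L5, a SPIRAL1-like protein of microtubules, with 104, 82.0 and 86.4 in Col-0, and AT1G72110, a WSD1-like acyltransferase, with 158, 60.3 and 96.4.

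The mutant labelled ada2b-c is named for ADA2B, an adaptor of GCN5, and ADA2B itself averaged 583 ± 27.4 in ada2b-c libraries and 494 ± 213 in Col-0 libraries (SD, n = 3 each). Set against it directly, 13567 genes, 58.3% of those tested, differed. Of these, 6939 were higher in gcn5, 29.8% of those tested, and 6628 were lower, 28.5%, and libraries did not overlap for 67.1% of all genes. The slope of signal on transcript length was 0.97 to 1.06 in the ada2b-c libraries, outside the range of gcn5, and with that slope as a covariate, a setting chosen after the data were seen, 4798 genes were higher and 2479 lower. All 16 antenna genes were higher in gcn5 than in ada2b-c in both fits, with medians of 2.32 and 2.28. LHCB2.1 had 26419 to 31749.8 in gcn5 libraries and 1696 to 1778 in ada2b-c libraries, a difference of 4.04 ± 0.15 (SE; adjusted p = 2.69e-13). XTH33 had 605 to 691 in gcn5 libraries and 18.3 to 25.9 in ada2b-c libraries, a difference of 4.87 ± 0.25 (SE; adjusted p = 1.77e-11). The pollen-coat genes GRP19 and EXL4 had 588 to 1144 and 489 to 647 in gcn5 libraries, and both were at 0 in all ada2b-c libraries. Of 17 aliphatic glucosinolate genes, 15 were higher in gcn5 and none was lower, in both fits. DIN2, a glucosidase induced in darkness, was lower in gcn5 than in ada2b-c, with 69.2 to 89.1 against 936 to 1031 and a difference of -3.68 ± 0.47 (SE; adjusted p = 2.49e-06). For salicylic acid genes the counts depend on the fit, with 0 higher and 8 lower in gcn5 without the covariate 1 higher and 2 lower with it, and 0 higher and 6 lower with the correction for length and GC content. TOC1 and BOA differed by -0.21 ± 0.21 and -0.40 ± 0.21 between gcn5 and ada2b-c and were not called, but with the correction for length and GC content they were called higher in gcn5, at 0.93 ± 0.21 (SE; adjusted p = 9.45e-04) and 0.72 ± 0.29 (SE; adjusted p = 0.0403).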

How the data were processed

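The deposited table holds a signal value for each gene and library, per the labels made from total RNA sequenced as paired reads of 150 bases. Per the submitters' processing notes, the authors used bcl2fastq, HISAT2 and edgeR with the TAIR10 genome. The sources used here give no versions, counting program, annotation or strandedness. The plan allowed for counts, but the values are not whole, so no count model was used. All 32548 identifiers matched the TAIR10.1 annotation of RefSeq, which gave names, lengths and promoters. The 23290 genes that averaged at least 1 across the 21 libraries were fitted as log2(value + 1) with limma 3.58.1 (variance trend, 1 mean per genotype) in R 4.3.3, with Benjamini-Hochberg adjustment and calls at an adjusted p under 0.05. Since the pseudocount is 1, changes of genes with low values are understated. On simulated data with 200 changed genes among 23290, 36% of the 2-fold and 84% of the 4-fold changes were recovered, and 0.0390% of the genes left alone were called. The simulated libraries were independent, and each gene had the same spread in every genotype. The real libraries differ in spread between genotypes and in length slope, and far more genes were called. These shares are therefore not error rates of the calls reported here. Lists are described by counts and medians, with no list test.

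The comparisons, gene lists and members were chosen with earlier results of these data known. The rule for named genes takes GCN5, ADA2A and ADA2B, up to 4 called members of a list in each direction with the largest changes and no overlap between libraries, and the 12 largest called changes in each direction over all genes with a mean of at least 50 in the higher group. Other list members are named for their role. Alternatives were no filter, a mean of at least 30, a pseudocount of 0.1, a log2 change of at least 1, a fit of only the groups compared, equal library totals, a correction for transcript length and GC content, the length slope as a covariate, a replicate block and each library left out. Python 3.11.15 and matplotlib 3.10.9 drew the figures. Depth is unknown, so no interval from counting was given.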

Additional observations from a re-analysis of the deposited data

How the results depend on the processing

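The counts for gcn5 against Col-0 (7994 called, 3630 higher, 4364 lower) held within 1.5 times under the alternatives, apart from the higher count: 2129 when the 6 libraries were fitted alone, 2364 at a log2 change of at least 1, and 5529 with a replicate block and the length and GC correction on the 6 libraries. With each library left out in turn, the called genes ranged from 6215 to 8965, the higher from 2658 to 4560 and the lower from 3557 to 4405. No gene was called in opposite directions by the main fit and an alternative. Against ada2b-c, 13567 genes were called, 11407 to 13933 with a library left out, and 7277 with the length slope as a covariate, of which 2479 were lower in gcn5. The cause of these moves was not tested. ADA2B, at 0.06 in the main fit and not called in any, changed sign to -0.40 with that covariate and to between -0.30 and -0.05 without Col-0 library 2 or 3 or gcn5 library 1 or 2 (-0.05, -0.16, -0.30 and -0.06), and it stood at 0.53 without gcn5 library 3. HAC12, called higher at 0.86 with overlapping libraries, stood at -0.15 and was not called with the length and GC correction, with or without the replicate block. Same-numbered libraries of gcn5 and Col-0 deviated together at correlations of 0.278, 0.0869 and 0.383. Libraries of different numbers did so at -0.317 to 0.120. Libraries 1 and 3 of gcn5 were thus closest to those of the same number, and gcn5 library 2 was closest to Col-0 library 1, at 0.120. The main fit did not take the numbers as pairs, and whether same-numbered libraries belong together was not tested. With the replicate number as a block, 8713 genes were called over all libraries. Over the 6 libraries 8568 were called with it, against 5429 without it. Medians of lists moved with equal library totals by about the 0.22 by which all genes moved.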

Other observations

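Genes next to each other on chromosome 1 beyond FT moved together and against it. These genes were picked after their values were seen, and positions are those of TAIR10.1. FT spans 24331373 to 24333999 and fell, as given above. AT1G65481, at 24340736 to 24341919, had 75.8, 118 and 145 in the gcn5 libraries, against 0.0167, 0.0356 and 3.22 in the Col-0 libraries. AT1G65483, at 24342483 to 24344158, had 243, 348 and 603 in the gcn5 libraries, against 7.39, 2.40 and 2.29 in the Col-0 libraries, one of the 12 largest increases of all genes tested. The next gene, AT1G65484, had 57.2, 54.8 and 81.9 in gcn5 and 10.7, 3.70 and 15.3 in Col-0. All of these rose, by 6.07 ± 0.54, 6.35 ± 0.52 and 2.74 ± 0.58 on the log2 scale (SE). AT1G65486 and AT1G65490, farther on, were not called, at 0.15 and -0.87, while AT1G65500, after them, had 1118, 1599 and 2455 in the gcn5 libraries, against 76.0, 154 and 134 in the Col-0 libraries, a rise of 3.80 ± 0.40 (SE; adjusted p = 3.38e-07). FAS1, the gene before FT, was not called, at 0.07. Neither the strand of the reads nor the origin of reads between these genes is given in the sources used here, and no cause was tested.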
